A study of Homo sapiens with 4 samples.

Results

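TXNIP, its arrestin-domain relatives ARRDC1, ARRDC2, ARRDC3 and ARRDC4, thioredoxin (TXN) and the transcription factors MLXIP (MondoA), MLXIPL (ChREBP) and MLX make up the 9 genes described here, out of 61860 in the deposited count table. They were taken by symbol, as glucose-responsive arrestin-domain genes with their MondoA/ChREBP regulators and thioredoxin, and all 9 symbols matched a single row each. The data are RNA-seq counts from 4 samples of HT1376, a cell line established from bladder cancer. Enfortumab vedotin (EV) was given at 1 nM for 48 h to 2 samples, and the control labelled WFI for the same 48 h to the other 2. All 4 were grown in MEM with fetal bovine serum, and total RNA was sequenced. EV is an antibody-drug conjugate that binds nectin-4 on the cell surface and carries monomethyl auristatin E, which disrupts microtubules. The series title concerns high glucose and the response to EV, but glucose was not a variable among these samples, so the comparison asks which transcripts differed after EV.

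TXNIP and the ARRDC proteins are alpha-arrestins, membrane adaptors that recruit NEDD4-family ubiquitin ligases to receptors and transporters. TXNIP also binds thioredoxin and lowers glucose uptake through the transporter GLUT1. When glucose 6-phosphate builds up in a cell, MondoA or ChREBP, each paired with MLX, enters the nucleus and binds paired E-box-like elements, and TXNIP and ARRDC4 are among the best known targets.

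Promoter sequences of TXNIP, ARRDC4 and ARRDC3 are shown because TXNIP and ARRDC4 share these regulators yet differed in opposite directions, while ARRDC3 had the largest rise among the members. Each is the stretch from position -250 to -46 before the RefSeq start site (GRCh38.p14), written in the direction of transcription. Capitals mark 3 motifs on either strand: the E-box CACGTG, a variant box known from carbohydrate response elements, CACGAG, and the box bound by nuclear factor Y, CCAAT. The TXNIP stretch is chr1:145996625-145996829 (minus strand), the ARRDC4 stretch chr15:97960453-97960657 (plus strand) and the ARRDC3 stretch chr5:91383363-91383567 (minus strand).
TXNIP: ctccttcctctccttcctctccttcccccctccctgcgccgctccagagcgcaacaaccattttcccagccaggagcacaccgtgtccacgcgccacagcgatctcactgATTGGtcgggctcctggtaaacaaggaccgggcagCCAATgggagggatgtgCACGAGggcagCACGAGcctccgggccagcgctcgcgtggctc
ARRDC4: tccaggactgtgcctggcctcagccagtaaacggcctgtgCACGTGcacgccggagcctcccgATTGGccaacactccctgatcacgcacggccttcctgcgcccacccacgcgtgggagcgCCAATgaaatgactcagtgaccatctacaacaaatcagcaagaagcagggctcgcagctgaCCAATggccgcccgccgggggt
ARRDC3: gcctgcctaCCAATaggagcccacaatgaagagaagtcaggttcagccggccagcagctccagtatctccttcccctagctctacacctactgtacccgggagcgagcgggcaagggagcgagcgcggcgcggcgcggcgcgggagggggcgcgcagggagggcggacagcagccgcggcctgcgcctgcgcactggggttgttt
In the TXNIP stretch 2 copies of CACGAG lie 5 bases apart at positions -88 to -72, the form of a carbohydrate response element. Such a pair, searched on both strands as CACGNG followed 5 bases later by CACGNG, is in 20 of 35116 promoter windows of 300 bases (0.057%). Pairs with other letters were not searched, so this share is for that pattern only. The ARRDC4 stretch holds 1 CACGTG at positions -210 to -205, a motif found in 7.26% of windows, and the ARRDC3 stretch neither E-box letter string. CCAAT, in 34.6% of windows, occurs 2 times in the TXNIP window, 3 times in that of ARRDC4 and 1 time in that of ARRDC3. These matches describe letters in a window, and no binding was measured here.

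Library totals ran from 19368791 to 20727175 counts in EV and from 19447577 to 19669037 in WFI. After the count filter, 17465 genes were tested with edgeR's quasi-likelihood test, and those with a Benjamini-Hochberg adjusted p under 0.05 are called changed. Levels are CPM, counts divided by library sizes that were scaled with TMM factors. Of 19 epithelial and urothelial markers 11 passed the filter, as did 4 of 8 mesenchymal or fibroblast markers. KRT8 averaged 1896 CPM in EV and 733 CPM in WFI. KRT7 averaged 750.5 CPM in EV and 436 CPM in WFI, and KRT18 725 CPM in EV and 387 CPM in WFI. CDH1 (E-cadherin) had 9 and 7 counts in EV and 0 and 1 in WFI, and KRT20 was at 0 in all. EPCAM had 26 and 15 counts in EV and 3 and 6 in WFI. VIM, a mesenchymal marker, averaged 1959 CPM in EV and 1724 CPM in WFI. The next highest of that list, COL1A1, averaged 7.16 CPM in EV and 8.84 CPM in WFI. Of the epithelial markers CDH1 and EPCAM were thus near the floor, while KRT7, KRT8 and KRT18 were abundant, as was VIM. The identity of the cells as HT1376 was taken as given and was not tested here. Summed over 7 leukocyte markers there were 612 and 682 counts in EV and 31 and 52 in WFI, with ITGAM and CD14 the only ones past the filter and PTPRC at 0.342 CPM in EV and 0.0959 CPM in WFI. NECTIN4, the antigen of EV, had 9 and 6 counts in EV and 28 and 29 in WFI. Its means were 0.402 CPM in EV and 1.37 CPM in WFI, so its RNA was scarce in the control as well. Neither nectin-4 protein nor uptake of EV was measured here.

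In EV-treated cells TXNIP fell, while ARRDC3, ARRDC4 and ARRDC2 rose. ARRDC3 was 5.88-fold and ARRDC4 5.02-fold higher, and TXNIP was 2.37-fold lower. MLXIP, which encodes MondoA, fell and TXN rose, whereas ARRDC1 and MLX did not pass the test and MLXIPL was close to silent. Among the 8 members tested there were 4 rises and 2 falls. The 6 called are 75.0% of those tested, against 66.0% of all 17465 genes tested, 34.5% higher and 31.5% lower, so the number of changed members was close to the background. The median log2 fold change was 0.46 over the tested members and 0.02 over all genes tested. The EV and WFI values did not overlap for 7 of 8 members (87.5%), against 82.8% of all genes tested. In bulk RNA fewer expressing cells and less RNA per cell cannot be told apart.

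**Figure D1:**
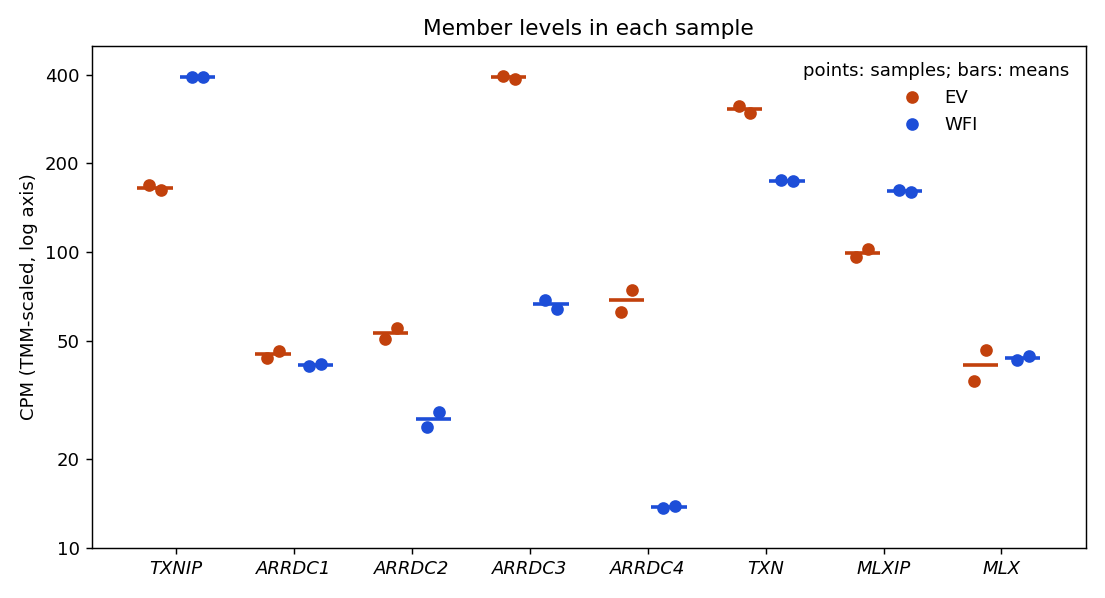
TMM-scaled CPM (log axis) of the 8 tested members in each sample, with points for the samples and bars for the means of 2. TXNIP and MLXIP lie lower in EV, ARRDC2, ARRDC3, ARRDC4 and TXN lie higher in EV, and the 2 MLX values in EV lie on either side of those in WFI; MLXIPL, with 0 counts in WFI, is not drawn.

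TXNIP (ENSG00000265972, hg38 chromosome 1, 145992435 to 145996600, minus strand) stood at 169 and 162 CPM in EV and at 393 and 392 CPM in WFI. Both EV samples were low and both WFI samples high, and the groups were far apart relative to their spread. Its mean was 165 ± 4.62 CPM in EV and 392 ± 0.566 CPM in WFI (SD, n = 2 each), a log2 fold change of -1.24 (SE 0.04, edgeR adjusted p = 2.87e-10). This fold change lies at percentile 10.9 of all genes tested. Its exons overlap no other annotated gene.

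ARRDC3, an adaptor known to act on integrin beta-4, lies on chromosome 5 (91368724 to 91383359, minus strand). Its level was 397 and 387 CPM in EV and 69.1 and 64.3 CPM in WFI. Every EV value exceeded every WFI value several times over, with means of 392 ± 6.57 CPM in EV and 66.7 ± 3.39 CPM in WFI (SD, n = 2 each). The log2 fold change was 2.55 (SE 0.05, edgeR adjusted p = 4.77e-12), at percentile 91.2 of all genes tested. An antisense RNA overlaps an exon, ARRDC3-AS1, with 14 and 30 counts in EV and 15 and 20 in WFI, few beside the 7214 and 7498 counts of ARRDC3 in EV and 1427 and 1345 in WFI.

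ARRDC4, the member closest to TXNIP in its known control by MondoA, lies on chromosome 15 (97960698 to 97973838, plus strand). It had 62.7 and 74.8 CPM in EV and 13.6 and 13.8 CPM in WFI. Both EV values were well above WFI, although they also differed from each other by more than the WFI pair did. The means were 68.8 ± 8.61 CPM in EV and 13.7 ± 0.148 CPM in WFI (SD, n = 2 each), for a log2 fold change of 2.33 (SE 0.11, edgeR adjusted p = 9.05e-09).

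ARRDC2, a less studied alpha-arrestin on chromosome 19 (18001132 to 18014102, plus strand), had 51.0 and 55.3 CPM in EV and 25.7 and 28.8 CPM in WFI. The groups did not overlap, and the log2 fold change was 0.97 (SE 0.09, edgeR adjusted p = 3.72e-06). An exon of AC020904.3 overlaps ARRDC2 on the opposite strand, so its counts are uncertain without the strand setting. ARRDC1, which directs the budding of small vesicles at the plasma membrane through TSG101, lies on chromosome 9 (137605654 to 137615360, plus strand). Its level was 44.0 and 46.5 CPM in EV and 41.2 and 41.8 CPM in WFI, higher in EV by a small margin that did not pass the test (log2 fold change 0.13, SE 0.08, edgeR adjusted p = 0.175). After an offset for spliced length and GC content the ARRDC1 value was -0.16 (edgeR adjusted p = 0.0842). Its exons overlap AL590627.2 on the same strand and ARRDC1-AS1 on the other, so its counts are uncertain. ARRDC1-AS1 had 334 and 376 counts in EV and 327 and 339 in WFI (log2 fold change 0.24, edgeR adjusted p = 0.0900).

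TXNIP was lower and ARRDC3 and ARRDC4 higher with TMM, RLE and upper quartile scaling and with DESeq2. Ratios of counts within a library, which need no scaling between libraries, show how far these genes moved relative to each other, though not the sign of either change. TXNIP had 2.69 and 2.17 times the counts of ARRDC4 in EV, and 28.9 and 28.4 times in WFI. For TXNIP over ARRDC3 the ratio was 0.426 and 0.419 in EV and 5.68 and 6.09 in WFI. Per kilobase of spliced length, too, ARRDC3 was above TXNIP in both EV samples (means of 79.4 and 45.7 CPM per kilobase) and below it in both WFI samples (means of 13.5 and 108 CPM per kilobase). ARRDC3 over ARRDC4 moved far less, with 6.33 and 5.17 in EV and 5.08 and 4.65 in WFI. These ratios are given without a test, and an exact permutation test of 2 samples against 2 cannot go below p = 0.333.

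Per kilobase of spliced length, TXNIP took 28.2% and 27.0% of the summed level of the 5 arrestin-domain members in EV, and 76.3% in each WFI sample. ARRDC3 took 48.8% and 47.4% in EV and 9.87% and 9.20% in WFI, and ARRDC4 took 9.34% and 11.1% in EV and 2.35% and 2.40% in WFI. The sum itself stood at 165 and 166 CPM per kilobase in EV and 142 in each WFI sample. ARRDC1 kept a similar share, with 6.99% and 7.35% in EV and 7.59% and 7.73% in WFI.

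**Figure D2:**
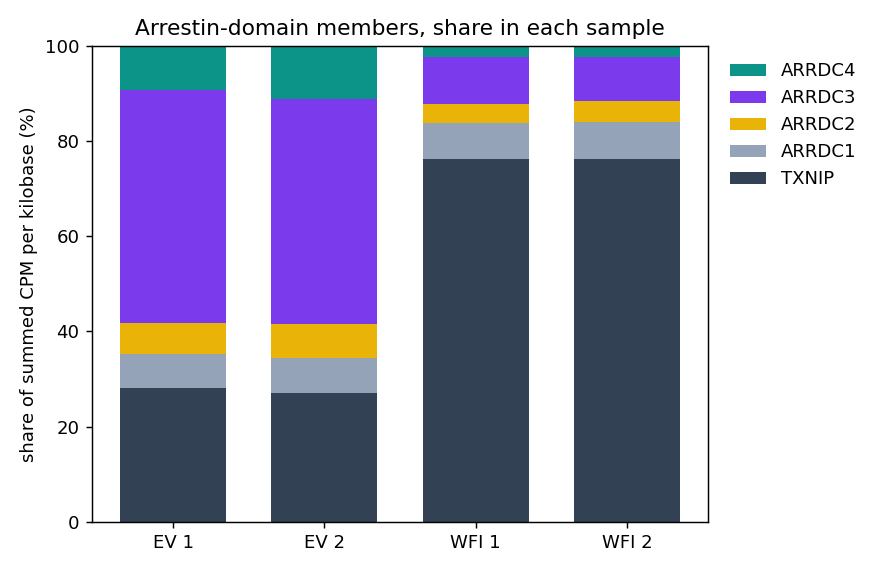
Share of the summed CPM per kilobase of spliced length taken by each of the 5 arrestin-domain members in each of the 4 samples, as stacked bars in percent. TXNIP fills 76.3% of each WFI bar and 28.2% and 27.0% of the EV bars, where ARRDC3 is the largest part.

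Thioredoxin, the small redox protein that TXNIP binds, is encoded by TXN on chromosome 9 (110243811 to 110256640, minus strand). It stood at 314 and 297 CPM in EV and 176 and 174 CPM in WFI. Both EV values were higher, by a log2 fold change of 0.80 (SE 0.04, edgeR adjusted p = 2.26e-08). Within a library the count of TXNIP was 0.538 and 0.546 times that of TXN in EV, and 2.23 and 2.26 times in WFI. Of the processed copies TXNP1 to TXNP7, TXNP6 had 14 and 2 counts in EV and 18 and 13 in WFI, TXNP4 had 8 and 15 in EV and 1 and 2 in WFI, and the others had 0.

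MLXIP, the MondoA gene on chromosome 12 (122078722 to 122147347, plus strand), had 96.3 and 103 CPM in EV and 163 and 160.3 CPM in WFI. The groups were apart, with a log2 fold change of -0.70 (SE 0.05, edgeR adjusted p = 3.41e-07). Its merged exons span 13905 bases, in decile 10 of spliced length, whose median log2 fold change was -0.55. With the offset for spliced length and GC content the MLXIP value was -0.39 (edgeR adjusted p = 2.03e-05). TXN lies in decile 1, the shortest, whose median was 0.45, and its value with that offset was 0.65, while TXNIP, ARRDC1, ARRDC4 and MLX lie in decile 5, with a median of 0.11.

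MLX, the obligate partner of MondoA and ChREBP, lies on chromosome 17 (42567068 to 42573239, plus strand). It had 36.6 and 46.7 CPM in EV and 43.2 and 44.4 CPM in WFI. The EV samples lay on both sides of WFI, and the difference did not pass the test (log2 fold change -0.07, SE 0.11, edgeR adjusted p = 0.589). The value turned on the EV sample used. With EV replicate 1 left out it was 0.08 (edgeR adjusted p = 0.325). With EV replicate 2 left out it was -0.27 (edgeR adjusted p = 0.0164), a call of lower. PSMC3IP overlaps MLX on the opposite strand, and the strand setting of the counting is not given in the sources used here. MLXIPL, the ChREBP gene on chromosome 7 (73593194 to 73624543, minus strand), had 8 counts in each EV sample and 0 in each WFI sample. That is at least 2.95-fold higher in EV against a floor of 3 counts per library, a bound for counting error only, and the gene lay below the filter. More genes were detected in EV (29456 and 28770) than in WFI (26258 and 26587). KRT5 and TP63 also had counts in EV only, so this pattern was not particular to MLXIPL. Of MLXIP and MLXIPL, nearly all RNA counted was MLXIP in both groups.

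**Figure D3:**
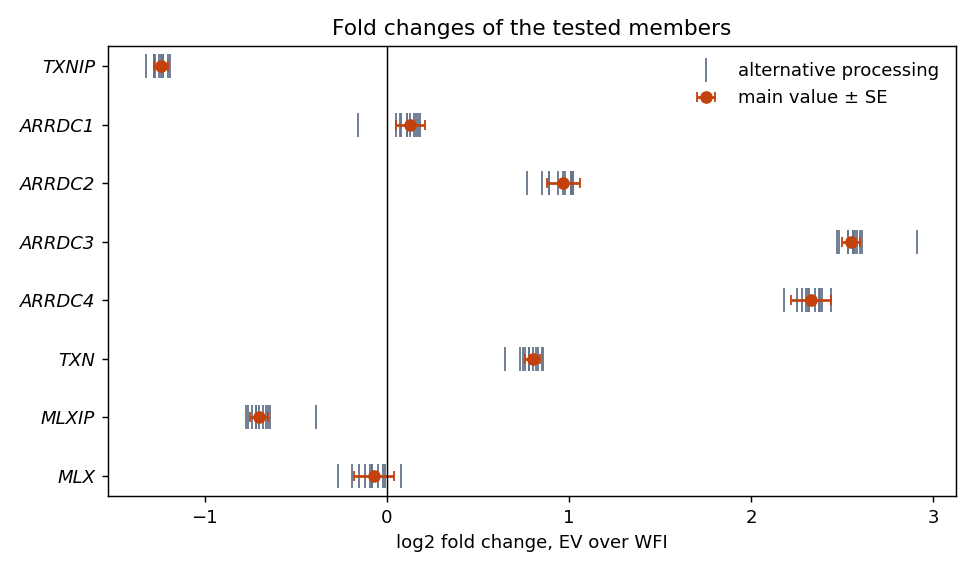
Log2 fold change of EV over WFI for the 8 tested members, with points and bars for the main value ± SE and ticks for the 11 alternative ways of processing. The ticks of TXNIP lie between -1.32 and -1.19 and those of ARRDC4 between 2.18 and 2.44, while those of ARRDC1 and MLX lie on both sides of 0.

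The order of members by CPM per kilobase of spliced length differed between the groups. In EV it was TXN (267), ARRDC3 (79.4), TXNIP (45.7), ARRDC4 (16.9), ARRDC1 (11.9), ARRDC2 (11.5), MLX (9.79), MLXIP (7.16) and MLXIPL (0.0886). The sample values of ARRDC1 and ARRDC2 overlapped in EV, and the higher MLX value lay close to the lower ARRDC2 value. In WFI the order was TXN (153), TXNIP (108), ARRDC3 (13.5), MLXIP (11.6), ARRDC1 (10.9), MLX (10.3), ARRDC2 (5.87) and ARRDC4 (3.37), with MLXIPL at 0 counts. ARRDC4 thus had rank 4 in EV and rank 8 in WFI. Where the merged exons of a gene exceed its expressed transcript, such values are too low, and this was not checked for any member.

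Other known targets of MondoA or ChREBP did not share 1 direction. For this and each later set of genes the background is all genes tested, with 34.5% higher, 31.5% lower and a median log2 fold change of 0.02. No set was tested against that background. The 24 listed held 17 tested genes, with 7 rises, 5 falls and 5 without a call (median log2 fold change 0.07). With the offset for spliced length and GC content there were 8 rises and 3 falls. The rises were 9 with RLE scaling and 10 with upper quartile scaling, with 5 falls under each. KLF10, a transcriptional repressor, had 751 and 756 CPM in EV and 96.7 and 103 CPM in WFI (log2 fold change 2.91, edgeR adjusted p = 7.17e-13). PFKFB3, which makes the glycolytic activator fructose 2,6-bisphosphate, had 741 and 764 CPM in EV and 136 and 138 CPM in WFI (log2 fold change 2.45). BHLHE40, a clock-linked repressor, rose by 0.98, while its relative BHLHE41 fell by 1.57 on the log2 scale. The lipogenic genes FASN and ACLY had log2 fold changes of 0.04 and 0.07 and did not pass, and SCD, a fatty acid desaturase, fell by 0.91. Of the 20 genes whose promoter window holds the paired boxes found before TXNIP, with TXNIP itself counted, 17 were tested. There were 6 rises, 5 falls that include TXNIP, and 6 without a call (median log2 fold change 0.01).

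Genes of the MAX network, some of which can also pair with MLX, moved both ways, with 5 of 8 higher and 3 lower (median log2 fold change 0.33). MXD1, a repressor that can pair with MAX or MLX, had 172 and 167 CPM in EV and 21.0 and 20.2 CPM in WFI, a log2 fold change of 3.04 (SE 0.06, edgeR adjusted p = 1.01e-11). MYC rose by 1.42. MGA, a large repressor of the network, had 13.9 and 10.5 CPM in EV and 75.5 and 72.8 CPM in WFI (log2 fold change -2.60), and MNT, which also pairs with MLX, fell by 1.80 on the log2 scale.

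In the thioredoxin and peroxiredoxin system all 24 genes listed were tested, with 16 rises, 3 falls and 5 without a call (median log2 fold change 0.50). Of all genes tested 34.5% were higher and 31.5% lower. TXNRD1, the cytosolic reductase that regenerates thioredoxin, went against most of the list, with 635 and 622 CPM in EV and 1167 and 1179 CPM in WFI (log2 fold change -0.90, SE 0.03, edgeR adjusted p = 3.14e-10). TXN therefore had 0.494 and 0.477 times the counts of TXNRD1 in EV, and 0.151 and 0.147 times in WFI. TXNL4B, a thioredoxin-like protein linked to splicing, rose by 1.92, and GLRX5, a mitochondrial glutaredoxin of iron-sulfur cluster assembly, rose by 1.09. All 6 peroxiredoxin genes rose, by 0.30 for PRDX1 to 0.95 for PRDX2, and were chosen as an example after their values were seen.

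Of the 9 NEDD4-family ligases, which alpha-arrestins recruit, 6 fell, 2 rose and 1 did not pass (median log2 fold change -0.69). With the offset for spliced length and GC content 4 fell and 2 rose. ITCH, a ligase known to ubiquitinate TXNIP, had 29.4 and 26.6 CPM in EV and 85.7 and 84.1 CPM in WFI, a log2 fold change of -1.60 (SE 0.07, edgeR adjusted p = 1.02e-08). SMURF2 fell by 0.53 on the log2 scale. NEDD4L rose by 0.67, with 393 and 399 CPM in EV and 246 and 253 CPM in WFI, and WWP1 and NEDD4 fell by 0.96 and 0.69 on the log2 scale.

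Other arrestin-fold genes were divided. Of 9 listed 8 were tested, with 4 higher and 4 lower (median log2 fold change -0.11). This split depended on the processing. The falls were 3 with DESeq2 and with a stricter count filter, and the rises were 5 with DESeq2 and with no count filter. ARR3, called lower, had 6 and 4 counts in EV and 20 and 22 in WFI, and passed the filter only through WFI. RGP1, part of an exchange factor for RAB6, fell by 0.90 on the log2 scale, and VPS26A, a retromer subunit, rose by 0.39. SAG, the visual arrestin, had 60 and 70 counts in EV and 0 in both WFI samples, at least 24.0-fold higher against a floor of 3 counts per library, and passed the filter only through EV. The beta-arrestin genes differed in sign, with ARRB1 lower (log2 fold change -1.30) and ARRB2 higher (0.47).

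Among 20 reported binding partners and cargo of TXNIP and the ARRDC proteins, 19 were tested, with 11 falls, 5 rises and 3 without a call (median log2 fold change -0.61). The rises were 3 without WFI replicate 2 and 3 without EV replicate 2, and CD36, with 11 and 12 counts in EV and 2 and 0 in WFI, passed the filter only through EV. The receptor EGFR fell by 1.54, NOTCH2 fell by 1.29 and DDIT4, a stress-induced inhibitor of mTORC1, fell by 0.61 on the log2 scale. The following were picked after their values were seen. SLC2A1, which encodes the TXNIP cargo GLUT1, had 161 and 158 CPM in EV and 255 and 243 CPM in WFI (log2 fold change -0.64, edgeR adjusted p = 1.60e-07). The ARRDC3 cargo gene ITGB4 rose by 1.16, and F2R, another, fell by 1.39 on the log2 scale. TSG101, the partner of ARRDC1, had a log2 fold change of -0.06 and did not pass.

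Of 19 known regulators of TXNIP transcription or stability, 9 fell, 5 rose and 5 did not pass (median log2 fold change -0.19). With the offset for spliced length and GC content 6 were lower and 8 higher, so that most calls were rises. HSF1, the heat shock factor, rose by 0.75. PRKAA2, a catalytic subunit of AMP-activated kinase, which marks TXNIP for degradation, had 8.14 and 9.04 CPM in EV and 35.6 and 33.7 CPM in WFI (log2 fold change -2.01, edgeR adjusted p = 6.57e-08). Its relative PRKAA1 fell by 0.88, the coactivator CREBBP fell by 0.73 and EP300 fell by 0.75 on the log2 scale. The CCAAT-binding subunits NFYB and NFYC rose by 0.62 and 0.43, while NFYA had a log2 fold change of -0.20 and did not pass.

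**Figure D4:**
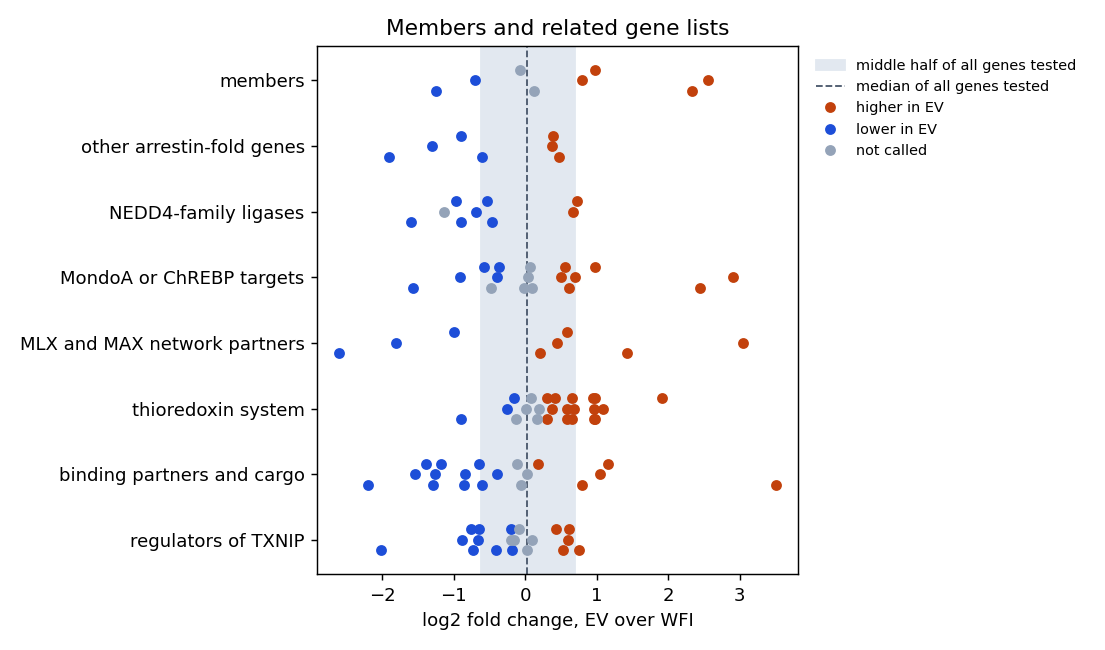
Log2 fold change of EV over WFI for each tested member and each tested gene of the 7 related lists, by list, with the middle 50% and the median of all genes tested as shading and a dashed line. Points are coloured by the edgeR call; SAG, with 0 counts in WFI, is not drawn. ARRDC3 and ARRDC4 lie to the right of the shading and TXNIP to its left.

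The genes whose profile over the 4 samples was most like that of a member were sought among 10575 protein coding genes outside these lists, by Euclidean distance between centred log2 CPM. Nearest to TXNIP were KAT6B (0.0132) and ACVR1B (0.0181), each with a log2 fold change of -1.25. Nearest to ARRDC4 were RASEF (0.0879), OSER1 (0.134) and AHR (0.135), with log2 fold changes of 2.39, 2.23 and 2.27. With 4 samples such nearness mostly restates the size of the difference between EV and WFI.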

How the data were processed

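The authors deposited raw whole-number counts per Ensembl gene, with no normalization, for the 4 samples. Per the submitters' processing notes the build was hg38, and per the labels' protocols the libraries were directional. Neither the aligner, the counter and its strand setting nor the annotation release is given in the sources used here.

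Symbols matched 61757 of 61860 identifiers. Counts were tested with edgeR 4.0.16 (R 4.3.3, TMM, filterByExpr on group, quasi-likelihood, group as the only term), adjusted by Benjamini-Hochberg over 17465 genes. The SE is the log2 fold change over the square root of F. The alternatives tried were upper quartile and RLE scaling, DESeq2 1.42.0, other filters, a replicate block, leaving out each sample, and an offset for length and GC content. Spliced lengths were merged exons of GENCODE release 29 on hg38. Promoter windows, 250 bases before to 50 after a start, came from RefSeq, and all 9 members had one. On simulated counts over 15905 genes, of which 200 were changed, 57.6% of genes changed by 0.5 (log2), 91.0% by 1 and 100.0% by 2 were recovered. There were 9 false calls. In the data 66.0% of genes tested were called, so recovery there may differ.

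Named genes were all members, the 3 smallest adjusted p in each list and, for TXNIP and ARRDC4, the 3 nearest profiles, of which some are not reported here. Other genes were chosen after their values were seen. Members and lists were chosen with earlier results of these data known. No label states that the replicates came from separate cultures, so p-values may measure technical spread only. Between replicates the counts varied beyond sampling noise, at 4.72 (EV) and 2.25 (WFI) chi-square per degree of freedom, and each counted as 1 sample. A search for protein motifs was not run.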

Additional observations from a re-analysis of the deposited data

How the results depend on the processing

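TXNIP, ARRDC2, ARRDC3, ARRDC4, MLXIP and TXN kept their direction and call under all 11 alternatives. Their log2 fold changes ran from -1.32 to -1.19, 0.77 to 1.02, 2.47 to 2.91, 2.18 to 2.44, -0.77 to -0.39 and 0.65 to 0.86, in that order. The count of higher members was 4, and 5 with no count filter and with DESeq2, which also called MLXIPL. The count of lower members was 2, and 3 without EV replicate 2, which added MLX (log2 fold change -0.27). MLX was 0.08 without EV replicate 1, and ARRDC1 was -0.16 with the length and GC offset, which took out the trend with these properties. Over all genes, higher calls ran from 4778 to 6471 and lower calls from 4611 to 5934. With the replicate block they were 5957 and 5573, and it changed no member's call. Deviations of same-numbered samples correlated at 0.0159, and the labels do not pair them. Among the lists, higher MondoA or ChREBP targets were 9 with RLE scaling and 10 with upper quartile scaling, in place of 7. With the length and GC offset 8 of these targets were higher and 3 lower, in place of 7 and 5. Lower NEDD4-family ligases were 4 in place of 6 with that offset. Regulators of TXNIP were 8 higher and 6 lower with it, in place of 5 and 9. Higher binding partners were 3 in place of 5 without WFI replicate 2 or EV replicate 2. With 1 sample left in a group, it is assumed to vary like the other group. Depth limits MLXIPL, at 8 counts per EV library.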
